A study of Saccharomyces cerevisiae with 6 samples.

Results

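The *UTP*, *NOP* and *RRP* genes of *Saccharomyces cerevisiae* form 3 naming families. Many of their proteins are nucleolar and make ribosomes, and some belong to the exosome, a complex that trims and degrades RNA. The members were the rows of the deposited table whose gene has a standard symbol of UTP, NOP or RRP followed by a number. They were 53 of the 5657 genes in the table, with 18 *UTP*, 17 *NOP* and 18 *RRP* genes. The reference annotation holds 53 protein-coding genes with such a symbol, so each of them had a row.

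The arrays were made from *S. cerevisiae* F12, an engineered yeast used to make ethanol from plant biomass. Cells were taken after 4 h of fermentation with 40% insoluble solids (IS, w/w) or with 0% IS, 3 arrays for each condition. In both conditions the cells grew in YNB medium with glucose and ammonium sulfate. The solids were glass beads, which stood in for lignocellulosic fibers. Whether each array came from its own culture is not given in the sources used here.

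The difference between 40% IS and 0% IS is not given here for any member. The deposited table holds that difference as the authors' own finished comparison, and those columns were not used. Signals of single arrays were not used here either, so neither the spread between arrays nor a test of the solids could be computed. The value left for each member is the authors' mean log2 signal, which is the robust multi-array average (RMA) signal averaged over the arrays of both conditions. It shows how bright a probe set was in the experiment as a whole and carries no information on the effect of IS. The brightness also depends on the probes, so the ranges and medians given here describe sets of probe sets, and no order of RNA levels between genes can be read from them.

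Ribosome production in yeast starts in the nucleolus, where RNA polymerase I transcribes a long precursor of the ribosomal RNAs. The small subunit processome assembles on its leading part and guides folding, modification and cleavage, and many of its proteins bear the name Utp after the U3 small nucleolar RNA that works within it. Proteins named Nop, for nucleolar protein, include the enzymes and scaffolds of RNA modification as well as factors of both subunits. Those named Rrp, for ribosomal RNA processing, include subunits of the exosome, the complex that trims and degrades RNA from the 3′ end.

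The 18 *UTP* probe sets had mean log2 signals between 8.68 and 10.19, with a median of 9.18 (authors' mean values). The UTP-A subcomplex, which binds early on the precursor and is linked to its transcription, was covered by 6 probe sets. *UTP5* (YDR398W) had a mean log2 signal of 10.19, *UTP15* (YMR093W) one of 10.04 and *UTP10* (YJL109C) one of 9.77. The other members of UTP-A were *UTP9* (YHR196W, 9.53), *UTP8* (YGR128C, 9.00) and *UTP4* (YDR324C, 8.93). Thus every UTP-A gene under a *UTP* symbol was represented, while *NAN1* (YPL126W), whose older name is UTP17, had a row outside the family with a mean log2 signal of 8.80.

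UTP-B is a second building block of the processome. Its 4 probe sets were *UTP13* (YLR222C, mean log2 signal 9.23), *UTP18* (YJL069C, 9.22), *UTP6* (YDR449C, 9.14) and *UTP21* (YLR409C, 8.89). The remaining UTP-B proteins, Pwp2 and Dip2, have the older names UTP1 and UTP12, and their genes had mean log2 signals of 8.82 (*PWP2*, YCR057C) and 9.17 (*DIP2*, YLR129W). UTP-C crosses the families, because *UTP22* (YGR090W, 9.50) and *RRP7* (YCL031C, 9.37) both encode parts of it.

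The other *UTP* genes gave 7 probe sets with mean log2 signals between 8.68 and 9.66. *UTP20* (YBL004W), which encodes a very large processome protein, had a value of 9.27. *UTP14* (YML093W, 8.75) encodes the activator of the helicase Dhr1, whose gene is listed as *ECM16* (YMR128W) and had a mean log2 signal of 8.83. *UTP23* (YOR004W, 9.66), *UTP30* (YKR060W, 9.07), *UTP7* (YER082C, 9.03), *UTP25* (YIL091C, 8.72) and *UTP11* (YKL099C, 8.68) were the remaining ones.

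**Figure D1:**
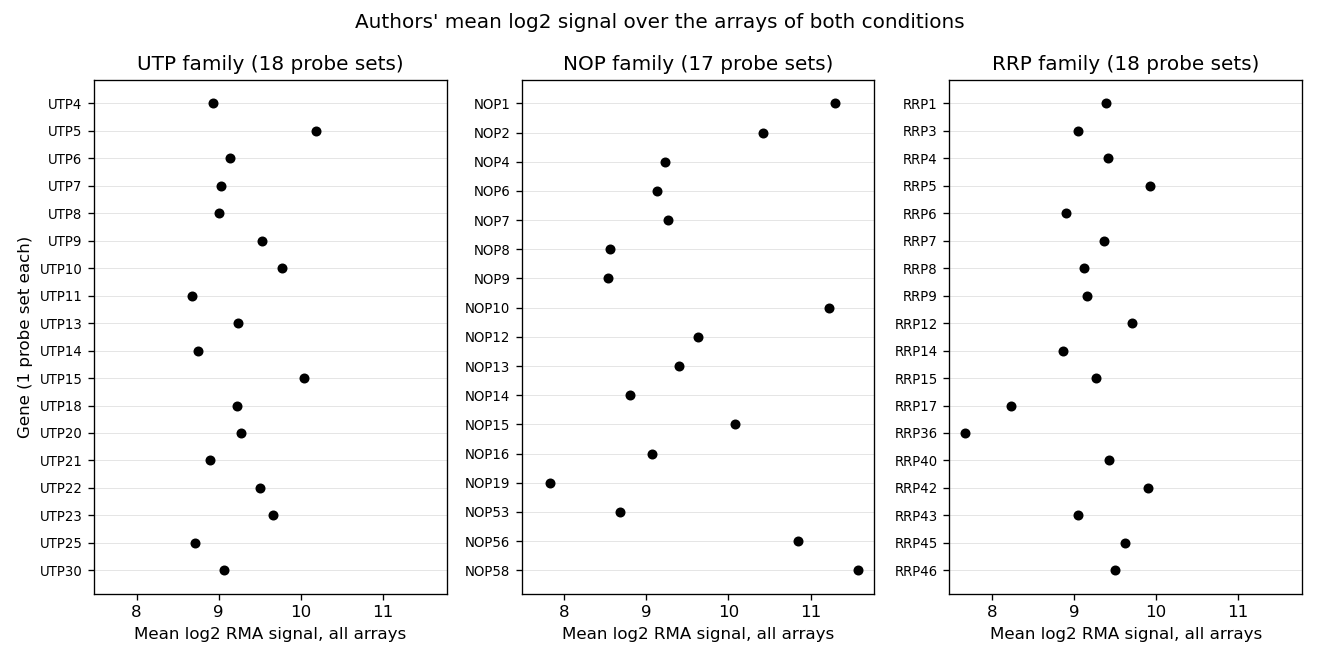
The authors' mean log2 RMA signal over the 6 arrays of both conditions (horizontal axis) is plotted for each probe set of the *UTP*, *NOP* and *RRP* families, with 1 point per gene in the order of the gene numbers. The points lie between 7.68 and 11.58, there are no error bars because the values are means as deposited, and the plot does not show the effect of solids.

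The 17 *NOP* probe sets had mean log2 signals between 7.83 and 11.58, with a median of 9.26 (authors' mean values). Modification of ribosomal RNA is carried out by small nucleolar ribonucleoproteins of the box C/D and box H/ACA kinds. Their 4 genes in this family were *NOP58* (YOR310C, 11.58), *NOP1* (YDL014W, 11.29), *NOP10* (YHR072W-A, 11.22) and *NOP56* (YLR197W, 10.84). Nop1 is the methyltransferase of box C/D particles, the yeast fibrillarin, and Nop56 and Nop58 form their scaffold. Nop10 belongs to the box H/ACA particles, which make pseudouridine. Their partner genes under other names had mean log2 signals of 12.43 (*SNU13*), 11.77 (*NHP2*), 11.30 (*GAR1*) and 11.10 (*CBF5*).

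Methyltransferases that act without a guide RNA were found in 2 of the families. *NOP2* (YNL061W) encodes an enzyme that methylates cytosine in the large subunit RNA and had a mean log2 signal of 10.43. *RRP8* (YDR083W), whose protein methylates adenine in the same RNA, had one of 9.13.

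The other 12 *NOP* genes had mean log2 signals between 7.83 and 10.08. Many of them encode assembly factors of the large subunit. Among those were *NOP15* (YNL110C, 10.08), *NOP12* (YOL041C, 9.63), *NOP7* (YGR103W, 9.26), *NOP4* (YPL043W, 9.22), *NOP16* (YER002W, 9.07), *NOP53* (YPL146C, 8.68) and *NOP8* (YOL144W, 8.56). Nop7 acts in a complex with Erb1 and Ytm1, and Nop53 recruits the exosome to the large subunit precursor. *NOP14* (YDL148C, 8.80), *NOP9* (YJL010C, 8.54) and *NOP19* (YGR251W, 7.83) encode factors of the small subunit, and *NOP14* has UTP2 as its older name. *NOP13* (YNL175C) was at 9.40 and *NOP6* (YDL213C) at 9.14.

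The 18 *RRP* probe sets had mean log2 signals between 7.68 and 9.92, with a median of 9.32 (authors' mean values). The exosome accounted for 7 of them. Its ring is built from proteins related to bacterial RNase PH, and the ring genes in the family were *RRP42* (YDL111C, 9.90), *RRP45* (YDR280W, 9.62), *RRP46* (YGR095C, 9.50) and *RRP43* (YCR035C, 9.04). The ring proteins Ski6 and Mtr3 are encoded by *SKI6* (YGR195W, 9.91), with the older name RRP41, and *MTR3* (YGR158C, 8.91). RNA enters through a cap, whose subunits are encoded by *RRP40* (YOL142W, 9.42), *RRP4* (YHR069C, 9.42) and *CSL4* (YNL232W, 9.00).

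The catalytic subunits of the exosome fall on both sides of the naming rule. *RRP6* (YOR001W), the nuclear exonuclease, had a mean log2 signal of 8.91. *DIS3* (YOL021C), with the older name RRP44, encodes the nuclease of the core and had one of 10.04. The nuclear cofactor genes *LRP1* (8.81), *MPP6* (8.34) and *MTR4* (8.98) had rows under their own symbols.

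The *RRP* genes outside the exosome and UTP-C act at separate steps. *RRP5* (YMR229C, 9.92) encodes a protein needed for both subunits, *RRP9* (YPR137W, 9.16) a protein of the U3 particle, and *RRP3* (YHR065C, 9.05) an RNA helicase of the small subunit. *RRP12* (YPL012W, 9.71) encodes a factor of nuclear export of the subunits, and *RRP17* (YDR412W, 8.23) an exonuclease that works from the 5′ end. *RRP1* (YDR087C, 9.39), *RRP15* (YPR143W, 9.27) and *RRP14* (YKL082C, 8.87) were further members. *RRP36* (YOR287C), a factor of the small subunit, was at 7.68.

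Each of the 53 members had 1 probe set, and all 53 were of the plain type (suffix _at), which Affymetrix designs for a single transcript. Among all rows, 102 probe sets had the suffix _s_at and 26 the suffix _x_at, which mark probes that other transcripts can share, and 46 genes had more than 1 probe set. The members' signals were therefore not measured on probes of the shared types. In the reference annotation 2 pairs of members lay with at most 2 protein-coding genes between them, a cutoff set for this description. Whether this number differs from that of other gene sets of the same size was not tested. *NOP8* and *RRP40* had 1 gene between them and *RRP6* and *UTP23* had 2, each pair in the same orientation.

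The families do not hold the whole pathway. In the reference annotation 14 further genes carry a UTP, NOP or RRP name only as a synonym, and all 14 had a row. Such a synonym does not by itself place a gene in the pathway. Some of the 14, such as *PWP2*, *DIP2* and *DIS3*, also belong to the list that follows. A list of 37 genes of the processome, the modification particles and the exosome under other symbols was found complete, each with 1 probe set. Their mean log2 signals lay between 8.01 (*ESF1*) and 12.43 (*SNU13*), with a median of 9.07. Over the whole table the mean log2 signals reached from 6.20 to 14.14 with a median of 8.79.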

How the data were processed

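Labelled cDNA made from total RNA of *S. cerevisiae* F12 was hybridized to Affymetrix yeast arrays, 3 for 40% IS and 3 for 0% IS. Normalization by the authors was done with RMA (Expression Console), and their test between conditions was that of limma as run by Babelomics. The deposited table has 5705 rows, 1 per probe set. Its mean log2 signal column, named by the authors as limma names the mean over all arrays, was the only column of values used. Its other 5 columns of values hold the authors' log2 differences, moderated t, p-values, adjusted p-values and log-odds for the comparison of conditions, and were not used. A further 3 columns were empty. How the rows were chosen is not given in the sources used here.

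Gene symbols came from the RefSeq annotation (assembly GCF_000146045.2 R64), and 5692 of the 5705 rows had a systematic name with an entry. The table itself holds systematic names only. From the pathway list 1 gene, *DBP4*, was matched through a synonym. The build behind the array is not given in the sources used here. Start positions in the RefSeq annotation served only to set the order of genes. The members and lists were chosen with earlier results of these data known. By the rule for named genes every member was accounted for, by role. No sequences were used, and no test was run. The values are means over all arrays, so no error was available, and the number of arrays limits their precision. Alternatives were 1 probe set per gene and leaving out the probe sets below the 25th percentile of mean log2 signal. Python 3.11.15, pandas 2.3.3, numpy 2.4.6 and matplotlib 3.10.9 were used.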

Additional observations from a re-analysis of the deposited data

How the results depend on the processing

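Taking 1 probe set per gene changed neither the number of members nor the median mean log2 signal of any family, since each member had 1 probe set. Leaving out the probe sets below the 25th percentile of the table removed *NOP19* and *RRP36*. The median was then 9.33 for *NOP* and 9.37 for *RRP* genes, with fewer probe sets counted. It stayed at 9.18 for *UTP* genes, none of which fell below that level. Leaving out the lowest values can only raise a median or keep it, so the direction of these changes was fixed by the filter. No paired analysis was possible because only means over all arrays were used. For the same reason the comparison of conditions, the fits without single arrays and the filter on dim probe sets in that comparison were not run. The searches of promoters for the PAC and RRPE motifs were not run, as no promoter sequences were used here.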
